A study of Homo sapiens with 3 samples.

Results

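The genes described here are 34 enzymes of glucose metabolism in HEK293T cells: glycolysis, the pentose phosphate pathway, the pyruvate dehydrogenase complex with its kinases, and the entry of galactose and glycogen sugars. They were chosen by name, with earlier results of these data known. All 34 are among the 23284 rows of the gene table, and their 72 RefSeq isoforms are among the 41138 rows of the isoform table. Polyadenylated RNA was sequenced from cells whose ESRP2 or Arkadia (encoded by RNF111) was targeted by siRNA, and from cells that received a negative control siRNA. All were HEK293T cells, a transformed line derived from human embryonic kidney, transfected with a lipid reagent as they were plated, harvested at 48 h and not given TGF-beta. There is 1 library for each siRNA, hence no replicate and no test, and what is compared is always one library with another. The comparisons ask how these transcripts stand after knockdown of ESRP2, an epithelial splicing regulator, or of Arkadia, a ubiquitin ligase of TGF-beta signalling. How many siRNA sequences were used per target is not given in the sources used here.

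Glycolysis turns glucose into pyruvate in the cytosol, with a small yield of ATP and NADH. Lactate dehydrogenase reduces pyruvate to lactate and so restores NAD+, whereas the pyruvate dehydrogenase complex carries pyruvate into the citric acid cycle in mitochondria. The pentose phosphate pathway branches off at glucose 6-phosphate and supplies NADPH and ribose for nucleotides. Fast-growing cultured cells such as HEK293T typically run glycolysis at a high rate even with oxygen present.

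The values are FPKM, fragment counts scaled to transcript length and library size, as the authors deposited them with a lower and an upper bound. The spacing of low values implied about 12.2 M reads with ESRP2 siRNA, 8.8 M reads with Arkadia siRNA and 11.7 M reads with control siRNA. By this estimate the library labelled Arkadia siRNA is the shallowest. How the authors scaled libraries is not given, and scaling may shift these read numbers. RNF111 had an FPKM of 1.154 with Arkadia siRNA and 6.377 with control siRNA. ESRP2 had 4.271 with ESRP2 siRNA and 14.75 with control siRNA, with intervals that overlapped. Of 17 markers of blood, vessel, fibroblast, kidney tubule, liver, muscle and brain cells, LRP2 was the 1 with a mean FPKM of at least 1. Their summed FPKM was 5.54, 7.45 and 6.11 with ESRP2, Arkadia and control siRNA, and HBB was listed at 0 throughout. In bulk RNA, a change in how many cells carry a transcript and a change of its level per cell cannot be told apart.

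The levels of the 34 genes differed widely. Their mean FPKM over the libraries lay between 3.90 for PFKFB2 and 4624 for GAPDH, and 12 of them were in the top 5% of genes compared in the control siRNA library. Together they held 1.84%, 2.27% and 2.12% of all summed FPKM with ESRP2, Arkadia and control siRNA. GAPDH, ALDOA and ENO1 made up 47.8% of the members' sum with ESRP2 siRNA, 56.4% with Arkadia siRNA and 62% with control siRNA. The deposited intervals were wide: their median width was 100% of the FPKM, and of the 33 neighbouring pairs in the order of levels, 33 overlapped with ESRP2 siRNA and 32 with Arkadia siRNA, as did 32 with control siRNA. With Arkadia and control siRNA the exception was GAPDH above ALDOA.

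**Figure D1:**
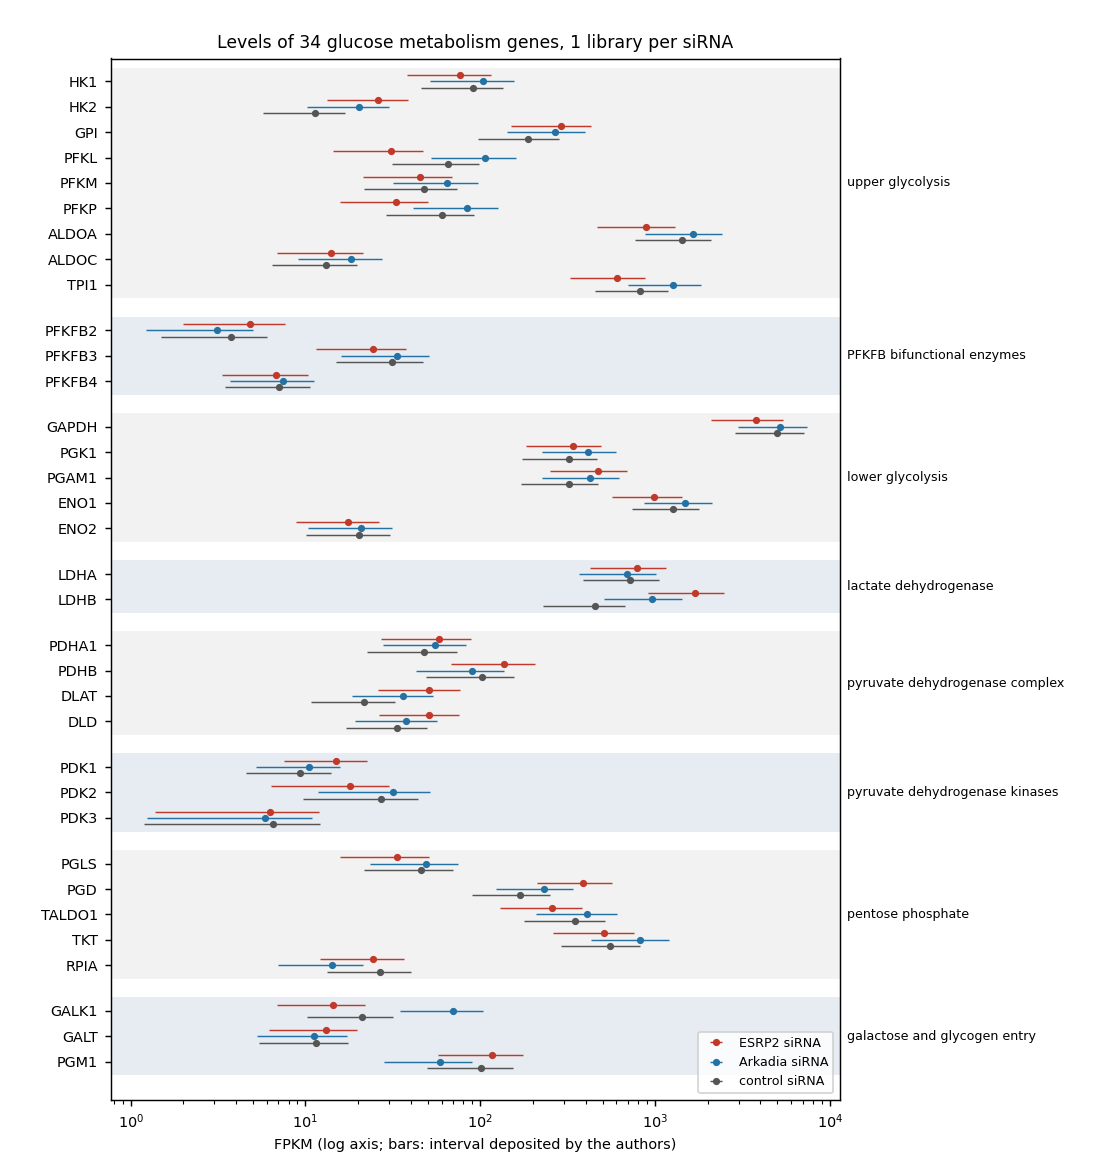
FPKM of the 34 genes (log axis) grouped by role, with 1 point per siRNA library and bars for the interval the authors deposited. GAPDH lies highest at 3751, 5157 and 4964 with ESRP2, Arkadia and control siRNA, and the Arkadia point of GALK1 stands away from its other points.

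A gene was called higher or lower when its log2 ratio of FPKM + 1 passed 1.5-fold. With ESRP2 siRNA, 7 of the 34 members were higher than with control siRNA (HK2, GPI, LDHB, DLAT, DLD, PDK1 and PGD), 3 were lower (PFKL, PFKP and ALDOA) and 24 were neither. Among all 11870 genes compared, 19.9% were higher and 11.4% lower, so the members' shares of 20.6% and 8.82% lay near the background. With Arkadia siRNA, 6 were higher than with control siRNA (HK2, PFKL, TPI1, LDHB, DLAT and GALK1), 2 were lower (RPIA and PGM1) and 26 were neither. Of all genes 9.81% were higher and 11.8% lower in that comparison, beside 17.6% and 5.88% of the members.

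The median log2 ratio of the members was -0.04 with ESRP2 siRNA and 0.21 with Arkadia siRNA, beside 0.12 and -0.02 over all genes. Rescaling by the median of ratios moved the median of all genes with ESRP2 siRNA to 0.01. The members then split into 4 higher and 5 lower, beside 1718 higher and 1834 lower of all 11870 genes. When libraries were scaled to the same upper quartile, they split into 4 higher and 8 lower, beside 1526 and 2054 of all genes. Past 1.5-fold with intervals that did not overlap were 1 member with ESRP2 siRNA, LDHB, and 1 with Arkadia siRNA, GALK1. The same held for 1.28% and 0.438% of all genes. HK2, LDHB and DLAT were higher with both siRNAs and PFKL was lower with ESRP2 and higher with Arkadia siRNA. Both comparisons use the same control library.

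**Figure D2:**
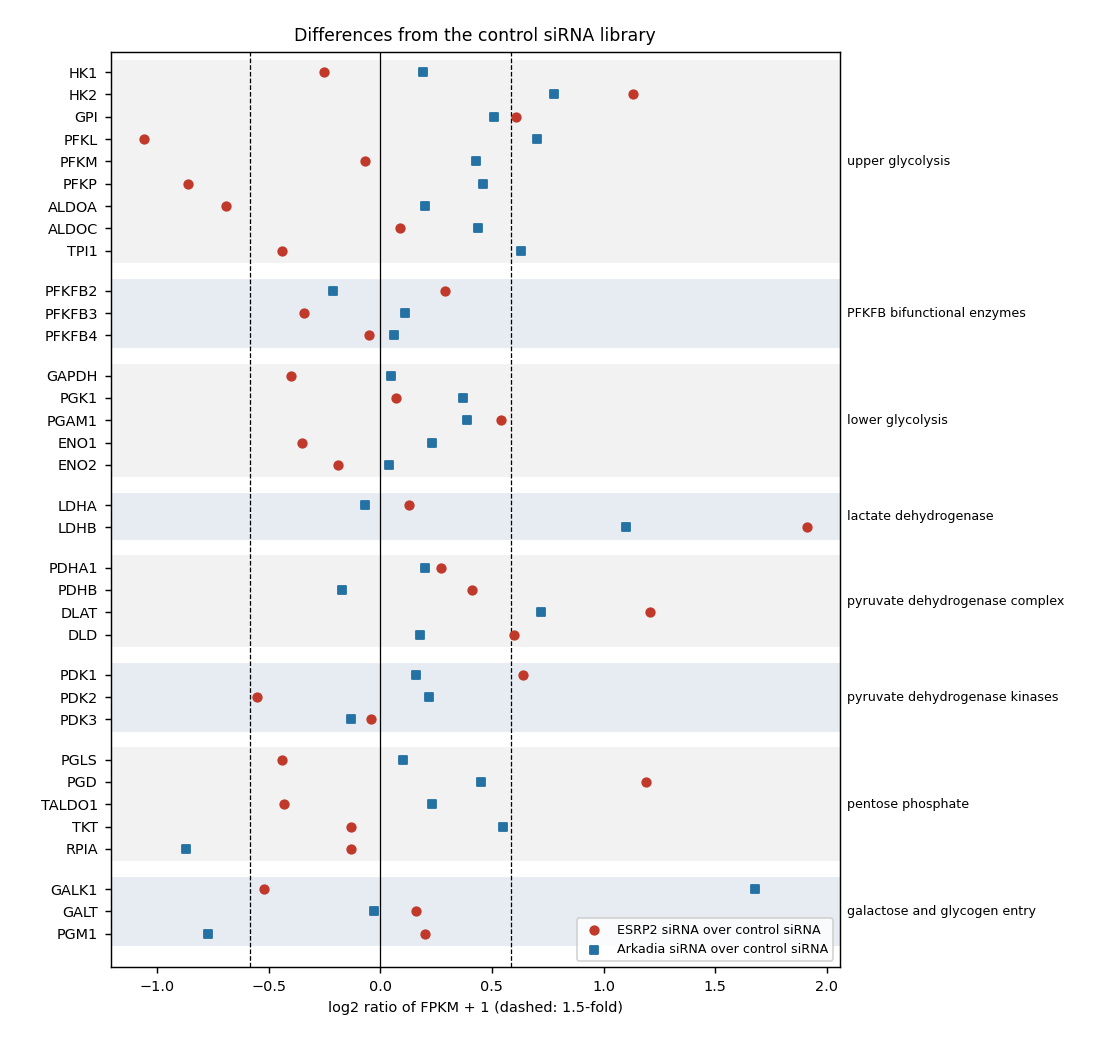
Log2 ratio of FPKM + 1 over control siRNA for the 34 genes, with circles for ESRP2 siRNA, squares for Arkadia siRNA and dashed lines at 1.5-fold. LDHB (1.91 and 1.10), DLAT (1.21 and 0.72) and HK2 (1.13 and 0.78) lie right of the line for both siRNAs, and PFKL (-1.06 and 0.70) lies beyond it on opposite sides.

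With ESRP2 siRNA, the differences of the members went along with the base composition of their transcripts, as did those of all genes. With Arkadia siRNA this held for all genes and less for the members. Transcript GC content of the members ran from 39.3% for DLD to 66% for PGLS, with a median of 53.6%. Across the 34 members, GC content and the log2 ratio had a Spearman correlation of -0.71 with ESRP2 siRNA and 0.30 with Arkadia siRNA, beside -0.64 and 0.56 across all genes. These are descriptions, since genes of the same libraries are not independent. Of the 17 members below the median GC content, 6 were higher and 0 lower with ESRP2 siRNA, with a median log2 ratio of 0.29. Of the 17 at or above it, 1 was higher and 3 were lower, with a median of -0.4. With Arkadia siRNA, 3 were higher and 2 lower below the median GC content, and 3 and 0 at or above it. The median log2 ratios with Arkadia siRNA were 0.19 and 0.23. Calls of all genes on either side of this GC content are not given here, so the split describes the members only. Over all genes, the median log2 ratio with ESRP2 siRNA was 0.60 in the lowest GC decile and -0.49 in the highest. With Arkadia siRNA it was -0.46 and 0.34. Values with the median of the gene's GC decile subtracted are given below beside the called members. The part of base composition in the other differences was not tested.

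**Figure D3:**
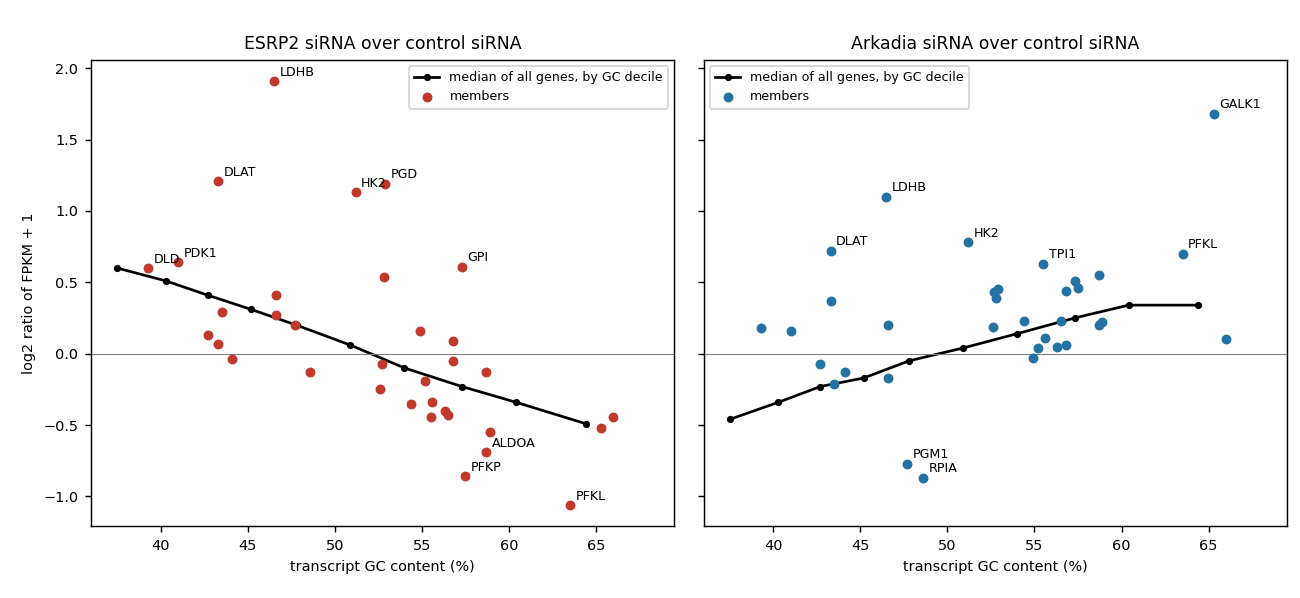
Log2 ratio of FPKM + 1 over control siRNA against transcript GC content in percent, for ESRP2 siRNA on the left and Arkadia siRNA on the right; coloured points are the 34 members and the black line joins the medians of all genes by GC decile. The line falls with GC content for ESRP2 siRNA (0.60 in the lowest decile and -0.49 in the highest) and climbs for Arkadia siRNA (-0.46 and 0.34). LDHB, DLAT, HK2, PGD and GPI lie above it on the left.

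Hexokinases trap glucose in the cell by phosphorylating it, HK1 being the widespread form and HK2 a form that many tumour lines raise. HK2 (chr2:75059782-75120481 in hg19, as are all gene positions given below) had an FPKM of 25.9 with ESRP2 siRNA and 20.2 with Arkadia siRNA, against 11.3 with control siRNA. It was lowest in the control library, and the intervals of all 3 libraries overlapped (13.3 to 38.5, 10.2 to 30.1 and 5.71 to 16.9). HK2 was 2.29-fold higher with ESRP2 siRNA and 1.78-fold higher with Arkadia siRNA than with control siRNA. The log2 ratios, 1.13 with ESRP2 and 0.78 with Arkadia siRNA, became 1.07 and 0.74 once the GC decile median was subtracted. HK1 stood at 76.2, 103 and 90.6 FPKM with ESRP2, Arkadia and control siRNA and passed the threshold in neither comparison. GPI, which interconverts glucose 6-phosphate and fructose 6-phosphate, was 288 with ESRP2 siRNA and 269 with Arkadia siRNA, against 188 with control siRNA. Its ratios to control, 1.53 with ESRP2 and 1.43 with Arkadia siRNA, lie just above and just below the threshold, and the call with ESRP2 siRNA was lost under either rescaling. Its log2 ratio with ESRP2 siRNA was 0.61, and 0.84 with the GC decile median subtracted.

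Phosphofructokinase catalyses the committed step of glycolysis and is built from liver (PFKL), muscle (PFKM) and platelet (PFKP) type subunits. PFKL (chr21:45719925-45747261) had 30.8 FPKM (14.4 to 47.2) with ESRP2 siRNA and 106 (52.5 to 161) with Arkadia siRNA, against 65.1 (31.4 to 98.6) with control siRNA. The control level lay between those of the knockdown libraries and overlapped with each, while the knockdown libraries did not overlap with each other. PFKP followed the same order, with 32.9 FPKM with ESRP2, 83.8 with Arkadia and 60.5 with control siRNA, and PFKM stood at 45.1 with ESRP2, 64.4 with Arkadia and 47.5 with control siRNA. Both PFKL and PFKP have GC-rich transcripts (63.5% and 57.5%). With the GC decile median subtracted, PFKL had log2 ratios of -0.56 with ESRP2 siRNA and 0.36 with Arkadia siRNA, under the threshold in each, and PFKP had -0.63 with ESRP2 siRNA.

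The PFKFB enzymes make and break the sugar phosphate that activates phosphofructokinase. None of the 3 passed 1.5-fold in either comparison with control. PFKFB3 was the most abundant, at 24.4, 33.5 and 31.1 FPKM with ESRP2, Arkadia and control siRNA. PFKFB4 had 6.82 with ESRP2, 7.43 with Arkadia and 7.08 with control siRNA, and PFKFB2 had 4.82 with ESRP2, 3.11 with Arkadia and 3.76 with control siRNA. Aldolase splits the sugar into a pair of trioses. ALDOA had 884 FPKM with ESRP2 siRNA and 1637 with Arkadia siRNA, against 1427 with control siRNA, and its ratio of 0.619 with ESRP2 siRNA passed the threshold. This log2 ratio of -0.69 was -0.46 with the GC decile median subtracted. ALDOC, a form best known from brain, stood at 14.1 with ESRP2, 18.2 with Arkadia and 13.1 with control siRNA. TPI1, the triose isomerase, had 603 FPKM with ESRP2 siRNA and 1269 with Arkadia siRNA, against 820 with control siRNA. Its ratio of 1.55 with Arkadia siRNA was a log2 ratio of 0.63, and 0.49 with the GC decile median subtracted.

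From GAPDH to enolase, 0 of 5 genes passed 1.5-fold in either comparison with control. GAPDH, which makes NADH and is often used as a reference transcript, stood at 3751 (2084 to 5416) with ESRP2 siRNA and 5157 (2958 to 7347) with Arkadia siRNA, against 4964 (2850 to 7080) with control siRNA. All 3 intervals overlapped. PGK1, which forms ATP, was at 337 with ESRP2, 413 with Arkadia and 320 with control siRNA, and the mutase PGAM1 was at 469 with ESRP2, 423 with Arkadia and 322 with control siRNA. ENO1 was at 990 with ESRP2, 1486 with Arkadia and 1262 with control siRNA, and the neuronal enolase ENO2 at 17.6 with ESRP2, 20.8 with Arkadia and 20.1 with control siRNA. GENCODE 29 names 62 pseudogenes after GAPDH, 13 after PGAM1, 6 after LDHA, 4 each after ENO1 and TPI1 and 3 after LDHB. With the GC decile median subtracted, PGAM1 passed the threshold with ESRP2 siRNA (a log2 ratio of 0.64 in place of 0.54) and PGK1 with Arkadia siRNA (0.60 in place of 0.37). How the authors' counting split reads between such copies was not tested.

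The largest difference from control among the members was that of LDHB. LDHA and LDHB encode the M and H subunits of lactate dehydrogenase; subunit A is known as the form suited to lactate production and subunit B as the form that also favours the return to pyruvate. LDHB (chr12:21788275-21810789) had 1694 FPKM (913 to 2476) with ESRP2 siRNA and 965 (508 to 1422) with Arkadia siRNA, against 451 (228 to 673) with control siRNA. The control library was the lowest, the ESRP2 siRNA interval lay wholly above it and the Arkadia siRNA interval overlapped with both. An estimated 27100 reads stand behind the level with ESRP2, 11200 with Arkadia and 6930 with control siRNA. LDHB was 3.76-fold higher with ESRP2 siRNA and 2.14-fold higher with Arkadia siRNA than with control siRNA. The log2 ratios, 1.91 with ESRP2 and 1.10 with Arkadia siRNA, were 1.60 and 1.27 with the GC decile median subtracted. LDHA passed the threshold in neither comparison, at 789 (426 to 1153), 686 (365 to 1007) and 720 (388 to 1053) FPKM with ESRP2, Arkadia and control siRNA. The ratio of LDHA to LDHB was accordingly 0.466 with ESRP2 siRNA and 0.711 with Arkadia siRNA, against 1.60 with control siRNA.

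The promoters of LDHA, LDHB and HK2 are printed because LDHB and HK2 passed 1.5-fold in both knockdown libraries and LDHA, the partner subunit of LDHB, in neither. Each runs from 250 bases before to 50 bases after the start of the gene in RefSeq (GRCh38.p14), read 5′ to 3′ on the gene's strand: LDHA at chr11:18394313-18394612 (plus strand), LDHB at chr12:21657793-21658092 (minus strand) and HK2 at chr2:74833877-74834176 (plus strand). Capitals mark ACGTG on either strand, one form of the core letters of the known hypoxia response element. The other form, GCGTG, was not searched and is not marked. The E-box letters CACGTG contain the match on both strands.
LDHA: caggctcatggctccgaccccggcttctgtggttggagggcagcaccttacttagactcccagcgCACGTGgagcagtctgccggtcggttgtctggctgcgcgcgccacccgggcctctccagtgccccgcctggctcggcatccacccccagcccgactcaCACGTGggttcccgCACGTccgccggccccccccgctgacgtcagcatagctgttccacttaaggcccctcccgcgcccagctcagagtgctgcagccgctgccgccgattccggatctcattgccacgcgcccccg
LDHB: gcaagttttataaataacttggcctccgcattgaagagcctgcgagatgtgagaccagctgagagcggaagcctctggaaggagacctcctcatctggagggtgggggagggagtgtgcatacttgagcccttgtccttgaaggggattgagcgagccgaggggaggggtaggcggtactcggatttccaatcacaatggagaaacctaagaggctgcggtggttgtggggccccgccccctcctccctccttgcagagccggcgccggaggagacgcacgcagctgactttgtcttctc
HK2: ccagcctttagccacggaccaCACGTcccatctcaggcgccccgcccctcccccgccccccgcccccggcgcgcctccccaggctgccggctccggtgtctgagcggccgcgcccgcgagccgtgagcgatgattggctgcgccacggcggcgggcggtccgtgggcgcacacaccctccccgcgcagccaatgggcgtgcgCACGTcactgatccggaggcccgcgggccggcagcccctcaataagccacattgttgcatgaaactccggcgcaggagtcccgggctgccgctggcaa
LDHA holds 5 matches to ACGTG counted over both strands, HK2 holds 2 and LDHB 0. The printed LDHA, LDHB and HK2 promoters each also hold GCGTG on either strand, which was not counted. A promoter was found for 33 of the 34 members, of which 13 (39.4%) hold ACGTG on either strand, beside 21.4% of all 35116 promoters in the same table. Each member was counted with a single promoter, whereas every promoter listed was counted for all genes. The promoters were not matched for GC content or type of gene. A match describes letters only, and no binding was measured here. Of the members with a match, HK2, GPI, DLAT and PGD were higher and ALDOA was lower with ESRP2 siRNA. HK2 and DLAT, whose promoter is not printed, were higher with Arkadia siRNA as well. The others, ALDOC, GAPDH, PGK1, ENO2, LDHA, PDHB, PDK3 and GALT, passed 1.5-fold against control with neither siRNA. Of the members without a match, LDHB, DLD and PDK1 were higher and PFKL and PFKP lower with ESRP2 siRNA. With Arkadia siRNA, PFKL, TPI1, LDHB and GALK1 were higher and RPIA and PGM1 lower among them.

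The pyruvate dehydrogenase complex has the decarboxylase subunits PDHA1 and PDHB, the acetyltransferase DLAT and the dihydrolipoyl dehydrogenase DLD. With ESRP2 siRNA, 2 of the 4, DLAT and DLD, were higher than with control siRNA, beside 19.9% of all genes. The median log2 ratio of the 4 was 0.51, beside 0.12 over all genes, and 0.15 after GC subtraction. DLAT (chr11:111895538-111944895) had 51.2 FPKM (26.1 to 76.2) with ESRP2 siRNA and 36.1 (18.5 to 53.7) with Arkadia siRNA, against 21.5 (10.8 to 32.3) with control siRNA. It was lowest in the control library, and the intervals overlapped. The ratio to control was 2.37 with ESRP2 siRNA and 1.68 with Arkadia siRNA. With the GC decile median subtracted, its log2 ratio of 1.21 with ESRP2 siRNA was 0.80 and that of 0.72 with Arkadia siRNA was 0.95. DLD was at 50.9 with ESRP2, 37.8 with Arkadia and 33.3 with control siRNA. Its log2 ratio of 0.60 with ESRP2 siRNA was 0.08 after GC subtraction, and its transcript has the lowest GC content of all members. PDHA1 stood at 57.7 with ESRP2, 55.2 with Arkadia and 47.8 with control siRNA, and PDHB at 136 with ESRP2, 90.2 with Arkadia and 102 with control siRNA. Neither passed the threshold against control, and after GC subtraction their log2 ratios with ESRP2 siRNA were 0.07 for PDHA1 and 0.21 for PDHB.

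Pyruvate dehydrogenase kinases switch the complex off by phosphorylating PDHA1. PDK1 had 15 FPKM with ESRP2 siRNA and 10.5 with Arkadia siRNA, against 9.28 with control siRNA. The 1.62-fold difference with ESRP2 siRNA was a log2 ratio of 0.64, and 0.13 after GC subtraction (41% GC). PDK2 was at 18 FPKM with ESRP2, 31.6 with Arkadia and 26.9 with control siRNA, and PDK3 at 6.30 with ESRP2, 5.88 with Arkadia and 6.51 with control siRNA, and neither passed the threshold.

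In the pentose phosphate pathway, the oxidative enzyme PGD (chr1:10459085-10480201), which releases NADPH and carbon dioxide, had 389 FPKM (210 to 567) with ESRP2 siRNA and 231 (123 to 338) with Arkadia siRNA, against 169 (89.5 to 249) with control siRNA. The intervals overlapped; the 2.30-fold difference with ESRP2 siRNA had a log2 ratio of 1.19, and 1.30 after GC subtraction. PGLS, the lactonase before it, was at 33.3 FPKM with ESRP2, 49 with Arkadia and 45.8 with control siRNA. Of the non-oxidative enzymes, RPIA (chr2:88991176-89050452), which isomerises ribose 5-phosphate, had 24.3 FPKM (12.1 to 36.5) with ESRP2 siRNA and 14.1 (7 to 21.3) with Arkadia siRNA, against 26.8 (13.4 to 40.2) with control siRNA. It was lowest in the Arkadia siRNA library, at a ratio of 0.529 with a log2 ratio of -0.87, and -0.83 after GC subtraction. TKT was at 509 FPKM with ESRP2, 814 with Arkadia and 555 with control siRNA and TALDO1 at 257 with ESRP2, 408 with Arkadia and 348 with control siRNA, and neither passed the threshold against control.

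The Leloir pathway enzymes GALK1 and GALT bring galactose into metabolism, and PGM1 links glucose 1-phosphate, from glycogen or galactose, to glucose 6-phosphate. GALK1 (chr17:73754018-73761280) had 14.3 FPKM (6.84 to 21.8) with ESRP2 siRNA and 69.4 (34.8 to 104) with Arkadia siRNA, against 21.0 (10.2 to 31.7) with control siRNA. The Arkadia siRNA library stood above both others with intervals that did not overlap, on an estimated 831 reads, beside 237 with ESRP2 and 334 with control siRNA. This 3.30-fold difference from control had a log2 ratio of 1.68, and 1.34 after GC subtraction. GALT, the next enzyme, was at 13.0 FPKM with ESRP2, 11.2 with Arkadia and 11.5 with control siRNA. PGM1 (chr1:64058947-64125916) had 116 FPKM (57.3 to 175) with ESRP2 siRNA and 58.9 (28.3 to 89.8) with Arkadia siRNA, against 101 (49.7 to 153) with control siRNA. Its ratio of 0.581 with Arkadia siRNA, a log2 ratio of -0.77 and -0.72 after GC subtraction, came with overlapping intervals.

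Because FPKM is per length, isoenzymes of a family can be set side by side. LDHB made up 68.2% of lactate dehydrogenase FPKM with ESRP2 siRNA and 58.4% with Arkadia siRNA, against 38.5% with control siRNA. HK2 made up 25.4% of HK1 and HK2 together with ESRP2, 16.3% with Arkadia and 11.1% with control siRNA. PFKM held 41.4% of the phosphofructokinase subunits with ESRP2 siRNA and 25.3% with Arkadia siRNA, against 27.5% with control siRNA, while the family's sum was 109 FPKM with ESRP2, 255 with Arkadia and 173 with control siRNA. PDK1 held 38.2% of the 3 kinases with ESRP2, 21.9% with Arkadia and 21.7% with control siRNA. These shares are not corrected for GC content, which differs within families. With ESRP2 siRNA, GC subtraction took the log2 ratio of PDK1 to 0.13, against 0.64 without it, and that of PDK2 to -0.22, against -0.55. It took PFKL to -0.56, against -1.06, and PFKM to 0.03, against -0.07. For LDHB, GC subtraction left 1.60 with ESRP2 siRNA, and LDHA had -0.28, against 0.13 without it. ALDOA kept at least 98.4% of aldolase and ENO1 at least 98.3% of enolase in every library.

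**Figure D4:**
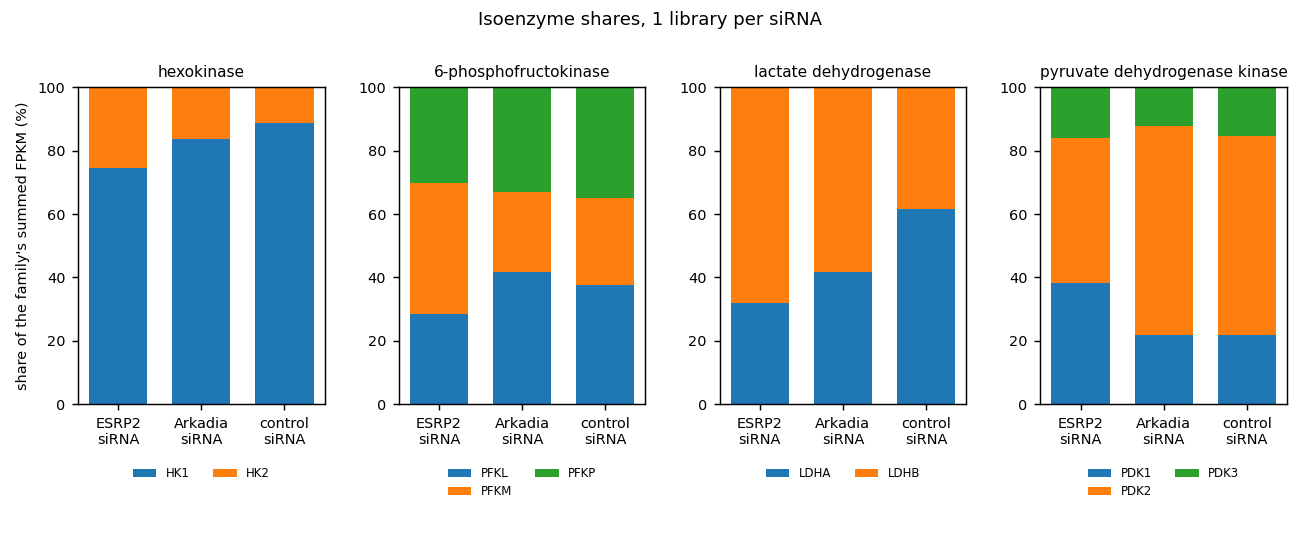
Share of each isoenzyme in the summed FPKM of its family, in percent, for ESRP2, Arkadia and control siRNA from left to right. LDHB is the larger part with ESRP2 siRNA (68.2%) and Arkadia siRNA (58.4%) and the smaller with control siRNA (38.5%), and HK2 is 25.4%, 16.3% and 11.1%.

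ESRP2 acts on splicing, so the isoforms of the members were compared as shares of the gene's summed isoform FPKM. Of the members, 15 have 1 isoform and 19 have more, of which 18 reached a sum of 5 FPKM in every library. The change in usage, from 0 for equal shares to 1 for a complete switch, reached 0.10 in 6 of the 18 members with ESRP2 siRNA against control and in 4 with Arkadia siRNA against control. Among all 3455 genes entered these were 46.7% and 45.5%, and the median change was 0.01 in the members in both comparisons, beside 0.09 and 0.08 over all genes. Leaving out isoforms under 5% of their gene in every library kept 8 members. Of these, 6 reached 0.10 with ESRP2 siRNA and 4 with Arkadia siRNA. That setting keeps only genes with more than 1 isoform past 5%, which selects for genes whose usage can change. The share of all genes under it is not given here, so these counts cannot be set beside 46.7% and 45.5%. Isoform values are estimates from short reads with wide intervals.

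With ESRP2 siRNA the change was largest in PGM1, at 0.27, and with Arkadia siRNA in ALDOA, at 0.244, followed by PGM1 at 0.232. Its isoform NM_001172819 had 63.4 FPKM (21.8 to 105) with ESRP2 siRNA and 2.55 (0 to 9.22) with Arkadia siRNA, against 27.9 (2.07 to 55.5) with control siRNA. That was 54.5% of the gene with ESRP2, 4.3% with Arkadia and 27.5% with control siRNA. The intervals of the knockdown libraries did not overlap with each other, and each overlapped with that of control. The other isoform, NM_002633, stood at 52.9 FPKM with ESRP2, 56.4 with Arkadia and 73.5 with control siRNA.

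The exon-skipping isoform NM_001173456 of PDHA1 had 14.4 FPKM (0.681 to 30.1) with ESRP2 siRNA and 3.86 (0 to 11.6) with Arkadia siRNA, against 1.78 (0 to 6.70) with control siRNA. This was 25% of PDHA1 with ESRP2, 7.0% with Arkadia and 3.7% with control siRNA, with intervals that overlapped. In PDHB, NM_001173468 made up 4.6% with ESRP2 siRNA and 2.5% with Arkadia siRNA, against 22.8% with control siRNA. Its intervals in FPKM, 0 to 23 with ESRP2, 0 to 10.4 with Arkadia and 0.264 to 48.5 with control siRNA, all overlapped. The 3 further members past 0.10 with ESRP2 siRNA were PFKM (0.202), ALDOA (0.161) and PDK2 (0.139), and ALDOA reached 0.244 and PDK2 0.152 with Arkadia siRNA. In ALDOA the share of NM_184043 was 56.6% with ESRP2, 66.5% with Arkadia and 43.2% with control siRNA, and that of NM_184041 was 38.2% with ESRP2, 30% with Arkadia and 54.3% with control siRNA.

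Coding bases that are present in only one isoform of these pairs are printed, for PGM1, PDHA1 and PDHB. They come from GENCODE 29 transcripts matched by RefSeq accession, on GRCh38 and not on the hg19 build of the deposited tables, and are given 5′ to 3′ on the gene's strand in lower case. PDHA1 exon 6, 93 bases at chrX:19354491-19354583 on the plus strand, is in NM_000284 and absent from NM_001173456. PDHB exon 6 holds 54 bases at chr3:58430789-58430842 on the minus strand that NM_000925 has and NM_001173468 lacks. PGM1 exon 1 holds 246 coding bases at chr1:63593489-63593734 on the plus strand that open the coding sequence of NM_002633 and are absent from NM_001172819, which differs from it in other sequence as well. All 3 lengths are multiples of 3.
PDHA1: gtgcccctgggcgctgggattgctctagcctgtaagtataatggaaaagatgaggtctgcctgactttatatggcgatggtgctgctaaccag
PDHB: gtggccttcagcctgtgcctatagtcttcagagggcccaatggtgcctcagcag
PGM1: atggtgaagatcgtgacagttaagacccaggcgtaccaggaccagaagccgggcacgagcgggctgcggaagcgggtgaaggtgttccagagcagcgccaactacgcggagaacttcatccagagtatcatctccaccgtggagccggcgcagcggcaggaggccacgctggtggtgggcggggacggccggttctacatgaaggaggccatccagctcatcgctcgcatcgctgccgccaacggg

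**Figure D5:**
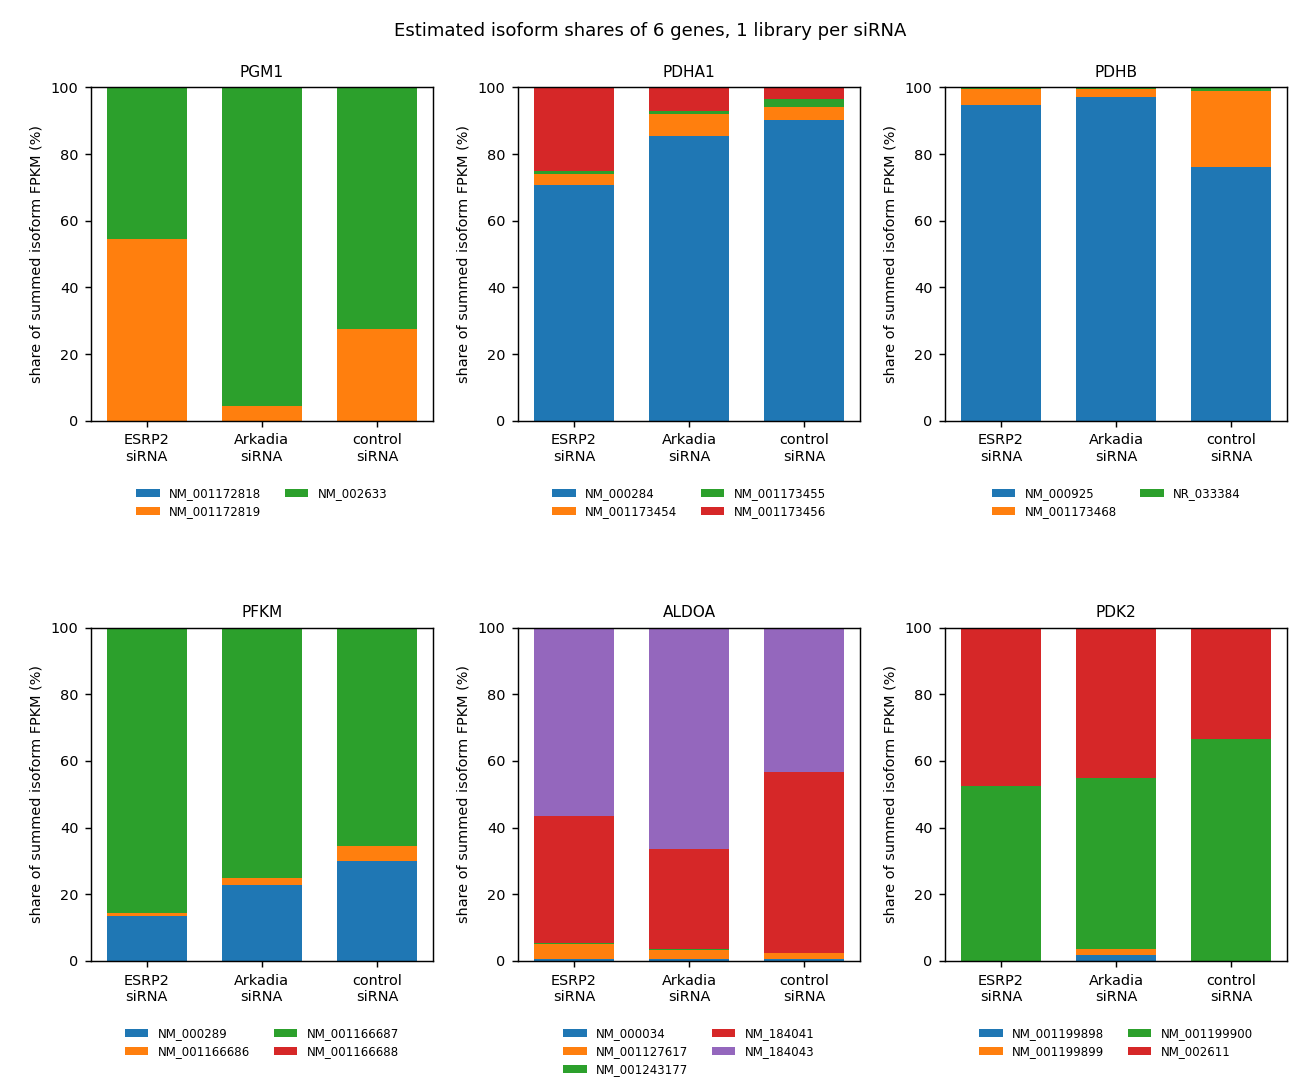
Estimated share of each RefSeq isoform in the summed isoform FPKM of 6 genes, in percent, for ESRP2, Arkadia and control siRNA from left to right. In PGM1, NM_001172819 takes 54.5%, 4.3% and 27.5%, in PDHA1, NM_001173456 takes 25%, 7.0% and 3.7%, and in PDHB, NM_001173468 takes 4.6%, 2.5% and 22.8%.

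Set directly against each other, the Arkadia siRNA library was higher than the ESRP2 siRNA library in 8 members and lower in 5. Of all genes 21.2% were higher and 30.8% lower, beside 23.5% and 14.7% of the members. The higher ones were PFKL, PFKP, ALDOA, TPI1, PDK2, TALDO1, TKT and GALK1, and the lower ones LDHB, PDHB, PGD, RPIA and PGM1. GALK1 was 4.84-fold and PFKL 3.46-fold higher with intervals that did not overlap, and 6.36% of all genes passed 1.5-fold in that way. After GC subtraction, the log2 ratio of GALK1 was 1.40 in place of 2.20 and that of PFKL 0.95 in place of 1.76. PFKP (0.85), TPI1 (0.83), PGD (-0.99) and PGM1 (-0.73) also stayed past the threshold. ALDOA (0.41), TALDO1 (0.19), TKT (0.20), PDK2 (0.12), LDHB (-0.34), PDHB (-0.35) and RPIA (-0.51) fell under it. PGK1 (0.92) rose past it. Rescaling by the median of ratios gave 14 higher and 4 lower members here, beside 3102 higher and 2995 lower of all 11870 genes. Rescaling by the upper quartile gave 14 and 3 members, beside 3127 and 2968 of all genes. Upper glycolysis held 4 of the 8 higher members and 0 of the lower ones among its 9 genes, with a median log2 ratio of 0.51, and 0.26 after GC subtraction. The Spearman correlation of these ratios with GC content was 0.75 across the 34 members and 0.75 across all genes. Isoform usage changed by at least 0.10 in 4 of 18 members, PGM1 (0.502), PDHA1 (0.181), PFKM (0.107) and ALDOA (0.101), beside 51.9% of all genes.

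Other genes of the pathway, taken from lists by role, were called in both directions. The counts below stand beside 19.9% of all genes higher and 11.4% lower with ESRP2 siRNA, and 9.81% higher and 11.8% lower with Arkadia siRNA; each list is short. Of 6 further glycolytic enzymes compared, 2 were higher and 1 lower with ESRP2 siRNA, and 0 and 1 with Arkadia siRNA. C12orf5, listed in RefSeq as TIGAR, a phosphatase that lowers glycolytic flux, was at 16.0 FPKM with ESRP2 siRNA and 3.75 with Arkadia siRNA, against 4.58 with control siRNA. Its ESRP2 siRNA interval lay above those of both other libraries. MINPP1, an inositol phosphate phosphatase, was at 67.7 FPKM with ESRP2, 16.1 with Arkadia and 31.9 with control siRNA, and ENO3, the muscle enolase, at 0.774 with ESRP2, 2.40 with Arkadia and 1.91 with control siRNA. HK3, PGK2, HKDC1, PFKFB1, PGAM2, PGAM4, LDHD and LDHAL6B, with PKLR and GAPDHS, had a mean FPKM under 1 and were not compared.

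Of 10 transporters of glucose, lactate and pyruvate compared, 3 were higher and 1 lower with ESRP2 siRNA, and 3 and 1 with Arkadia siRNA. BRP44L, listed as the mitochondrial pyruvate carrier subunit MPC1, was at 139 FPKM with ESRP2, 38.8 with Arkadia and 64.2 with control siRNA. The glucose transporter SLC2A1 was at 23.0 with ESRP2, 46.4 with Arkadia and 41.0 with control siRNA, SLC2A3 at 2.47 with ESRP2, 1.73 with Arkadia and 0.745 with control siRNA, and SLC2A12 at 6.10 with ESRP2, 2.51 with Arkadia and 2.94 with control siRNA. Of 6 further pentose phosphate genes, 2 were higher with ESRP2 siRNA and 1 was lower with Arkadia siRNA. The epimerase RPE was at 47.6 FPKM with ESRP2, 11.3 with Arkadia and 16.9 with control siRNA, the aldolase DERA at 21.6 with ESRP2, 11.3 with Arkadia and 13.5 with control siRNA, and the PRPP synthetase PRPS2 at 78.7 with ESRP2, 34 with Arkadia and 59.9 with control siRNA.

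Among 11 partners of pyruvate dehydrogenase and enzymes of pyruvate fate, 3 were higher and 1 lower with ESRP2 siRNA, and 1 was higher with Arkadia siRNA. PDHX, which anchors DLD to the complex, was at 22.5 FPKM with ESRP2, 14.3 with Arkadia and 10.6 with control siRNA, and pyruvate carboxylase PC at 6.29 with ESRP2, 13.9 with Arkadia and 12.4 with control siRNA. PCK2 was at 14.1 with ESRP2, 20.3 with Arkadia and 11.8 with control siRNA, and malic enzyme ME1 at 18.6 with ESRP2, 9.50 with Arkadia and 11.7 with control siRNA. The 14 genes listed for the citric acid cycle include the cytosolic forms ACO1 and MDH1. Of the 14, 2 were higher and 1 lower with ESRP2 siRNA, and 3 and 1 with Arkadia siRNA. ACO1, the cytosolic aconitase, was at 27.8 FPKM with ESRP2, 11.3 with Arkadia and 22.2 with control siRNA. IDH3G was at 53.4 with ESRP2, 151 with Arkadia and 96.4 with control siRNA and MDH1 at 304 with ESRP2, 252 with Arkadia and 185 with control siRNA. Of 17 galactose, glycogen and fructose genes, 2 were higher and 1 lower with ESRP2 siRNA, and 1 and 1 with Arkadia siRNA. Glycogen synthase GYS1 was at 20.7 FPKM with ESRP2, 54.1 with Arkadia and 40.3 with control siRNA. PGM2 was at 31.9 with ESRP2, 11.9 with Arkadia and 13.6 with control siRNA, and PGM2L1 at 2.65 with ESRP2, 0.804 with Arkadia and 1.73 with control siRNA.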

How the data were processed

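Polyadenylated RNA from HEK293T cultures, 1 library per siRNA, was sequenced by Ion Torrent chemistry, as the labels' protocols say. The authors deposited FPKM per gene and isoform with bounds, per the file headers. The submitters' processing notes name hg19, TopHat2 2.0.10, Cufflinks 2.1.1, Cuffdiff and Bowtie2 2.1.0. How libraries were scaled and whether strand was used: not given in the sources used here.

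From the deposited FPKM, log2 ratios with a pseudocount of 1 were computed (Python 3.11.15, pandas 2.3.3), which understates changes of low genes. The 11870 genes compared have status OK, 300 nt or more in their longest isoform and a mean FPKM of 1 or more; all 34 members are among them. A call needed 1.5-fold. With 1 library per group there is no p-value. Isoform usage change adds the absolute differences of shares and divides by 2. Depth was estimated from the spacing of low FPKM of genes with 1 isoform, of which 95.6% to 96% lay within 0.15 of a whole read. GC content came from GENCODE 29 transcripts for 99.1% of genes.

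Members and lists were chosen with earlier results of these data known. Any member could be named; of other lists, up to 4 genes past 1.5-fold by size, and by isoform usage up to 6 members. The code was checked on simulated tables. In ENO1, TPI1, PFKFB3, PDHA1 and DLAT the deposited locus also covers another gene. Some genes of these pathways are not reported here.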

Additional observations from a re-analysis of the deposited data

How the results depend on the processing

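No paired analysis was possible because each group has 1 library; for the same reason no library could be left out. Pseudocounts of 0.1 and 5, filters on low values and the gene level from the isoform table kept the members' counts within 1.5 times and their median within 0.1. With ESRP2 siRNA against control, scaling by the median of ratios gave 4 higher and 5 lower members with a median of -0.15. Scaling to the upper quartile gave 4, 8 and -0.20. Of all 11870 genes, the median of ratios gave 1718 higher and 1834 lower, and the upper quartile 1526 and 2054. Subtracting GC decile medians gave 6 higher members and 1 lower, beside 1082 and 906 of 11760 genes. Subtracting length decile medians gave 4 higher and 4 lower with a median of -0.17, beside 1720 and 1834 of 11870 genes. With Arkadia against ESRP2 siRNA, scaling by the median of ratios gave 14 higher and 4 lower members with a median of 0.31. The upper quartile gave 14 higher and 3 lower with 0.32. Of all 11870 genes, the median of ratios gave 3102 higher and 2995 lower, and the upper quartile 3127 and 2968. GC subtraction gave 5 higher and 2 lower there, beside 1462 and 1658 of 11760 genes. Requiring intervals that do not overlap left 1 higher and 0 lower with ESRP2 siRNA, beside 103 and 49 of all 11870 genes. It left 1 and 0 with Arkadia siRNA against control, beside 23 and 29, and 2 and 0 in the direct comparison, beside 225 and 530. A 2-fold threshold left 4 and 1 with ESRP2 siRNA, beside 647 and 287 of all genes. It left 2 and 0 with Arkadia siRNA, beside 199 and 266, and 4 and 0 in the direct comparison, beside 1056 and 1837. When isoforms under 5% were left out, 8 members were entered. Isoform usage reached 0.10 in 6 of them with ESRP2 siRNA, in 4 with Arkadia siRNA and in 2 between the knockdowns. The share of all genes at that setting is not given here. Beyond settings that only narrow the call, the cause was not tested.

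Of these settings, pseudocounts, filters and the 2-fold and interval rules cannot reverse a ratio. The gene level from the isoform table gave the same counts as the main setting. Under the rescalings and the subtraction of GC or length decile medians, no called member changed direction. Apart from the 2-fold and interval rules, DLAT, HK2, LDHB, PFKP and PGD with ESRP2 siRNA and DLAT, GALK1, HK2, LDHB, PGM1 and RPIA with Arkadia siRNA stayed past 1.5-fold in all, whereas ALDOA, DLD, GPI, PDK1 and PFKL with ESRP2 siRNA and PFKL and TPI1 with Arkadia siRNA did not. In the direct comparison GALK1, PFKL, PFKP, PGM1 and TPI1 stayed past it, and 8 others did not. For all genes with ESRP2 siRNA, 63.6% of calls were upward, against 48.4% and 42.6% under the 2 rescalings. The intervals are wide and the Arkadia siRNA library is the shallowest by the estimate from low values, so differences near 1.5-fold were not resolvable here. With ESRP2 siRNA, HK2, DLAT, PGD and PFKL were past 2-fold with intervals that overlapped, and LDHB with intervals that did not. Variation between cultures was not measured for differences of any size.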
